A study of Mus musculus with 12 samples.

Results

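The liver expression of 9 T cell marker genes, of 47729 gene identifiers counted, was described mouse by mouse. They were chosen as a list of gene symbols, with Cd4 as the marker of the CD4 lineage, Cd8a and Cd8b1 as markers of the CD8 lineage, and Cd3d, Cd3e, Cd3g, Lck, Cd28 and Cd7 as markers shared by T cells. Whole liver of 12 male C57BL/6 mice was profiled by RNA-seq, 4 mice in each of 3 groups, all collected at 9 weeks of age. The Naive_vehicle group were wild-type mice given the dosing vehicle with no disease induction. The STAM_vehicle group followed the STAM protocol for non-alcoholic steatohepatitis (NASH), in which a single injection of streptozotocin, a toxin of insulin-producing cells, on day 2 after birth is combined with a high-fat diet from week 4, and received the dosing vehicle. The STAM_treated group followed the same protocol and received I-BET151, an inhibitor of the BET proteins that read acetylated histones, at 10 mg/kg by mouth once a day from week 6 to week 9. STAM mice differed from naive mice in both streptozotocin and diet, so the contribution of each cannot be told apart, and the vehicle of the control mice had another composition than the one that carried I-BET151. The comparisons asked how the T cell markers differed between diseased and naive liver, and between diseased liver with and without the inhibitor.

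T cells recognize antigen through a receptor whose signalling part is the CD3 complex, built from the products of Cd3d, Cd3e and Cd3g. CD4 and CD8 are co-receptors: CD4, carried by helper and regulatory T cells, binds MHC class II, and CD8, an alpha and beta chain pair on cytotoxic T cells, binds MHC class I. Both bring the kinase LCK to the receptor, CD28 supplies the costimulatory signal, and CD7 is a surface glycoprotein of T and NK cells. In fatty liver disease T cells of both lineages are known to enter the tissue, but hepatocytes supply most of its RNA, so that these transcripts are rare in whole liver. In such bulk tissue, fewer T cells and less RNA of a gene per T cell cannot be told apart.

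Total counts ran from 34711229 to 53365596 per mouse. Levels are given as CPM, the count scaled to the size of the library after TMM normalization, which evens out differences in composition between libraries. The third STAM_treated mouse stood apart, with a TMM factor of 1.61 against 0.770 to 1.11 in the other 11 mice, and with 7 hepatocyte marker genes at a summed 26237 CPM against 64547 to 137280 CPM. The first Naive_vehicle mouse stood apart in the T cell markers themselves: their summed level was 7.17 CPM there and 3.28, 3.72 and 2.99 CPM in the other naive mice. Results that turned on either mouse are given with and without it.

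The 3 Cd3 genes lie together on mouse chromosome 9 (build GRCm38, GENCODE gene models). Cd3g (ENSMUSG00000002033, chr9:44969572-44980431, minus strand) and Cd3d (ENSMUSG00000032094, chr9:44981786-44987339, plus strand) start head to head, 1355 bases apart, and Cd3e (ENSMUSG00000032093, chr9:44998740-45009627, minus strand) ends 11401 bases beyond Cd3d. The CD8 chains are also neighbours, Cd8b1 (ENSMUSG00000053044, chr6:71322788-71337494, plus strand) ending 35933 bases before Cd8a (ENSMUSG00000053977, chr6:71373427-71379173, plus strand). On the same chromosome lies Cd4 (ENSMUSG00000023274, chr6:124864692-124888221, minus strand). The remaining members are Lck (ENSMUSG00000000409, chr4:129548344-129573641, minus strand), Cd28 (ENSMUSG00000026012, chr1:60716800-60773359, plus strand) and Cd7 (ENSMUSG00000025163, chr11:121036747-121039418, minus strand). Reads of Lck may be shared with Mir8119, and those of Cd7 with the antisense gene Gm11775, whose exons overlap them; both of these had 0 to 1 counts in every mouse. An exon of Cd3e overlaps the antisense gene Gm48719, not analysed here.

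RefSeq promoter entries (build GRCm38.p6) matched 5 of the 9 genes. The 250 bases before the start of Cd3g (chr9:44980432-44980681, minus strand), Cd3d (chr9:44981536-44981785, plus strand), Cd3e (chr9:45009612-45009861, minus strand) and Cd8a (chr6:71373177-71373426, plus strand) are shown, because the CD3 chains form a single complex from neighbouring genes and Cd8a rose in STAM liver. Starts are those of the promoter entries. For Cd3e the window reaches into the GENCODE gene model, which extends to 45009627. Capitals mark the ETS core GGAA and the RUNX motif TGTGGT, each searched on both strands.
Cd3g: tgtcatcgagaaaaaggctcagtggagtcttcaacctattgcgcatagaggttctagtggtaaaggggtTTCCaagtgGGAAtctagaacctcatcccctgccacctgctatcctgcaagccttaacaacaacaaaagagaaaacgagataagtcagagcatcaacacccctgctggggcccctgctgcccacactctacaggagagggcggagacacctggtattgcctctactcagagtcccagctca
Cd3d: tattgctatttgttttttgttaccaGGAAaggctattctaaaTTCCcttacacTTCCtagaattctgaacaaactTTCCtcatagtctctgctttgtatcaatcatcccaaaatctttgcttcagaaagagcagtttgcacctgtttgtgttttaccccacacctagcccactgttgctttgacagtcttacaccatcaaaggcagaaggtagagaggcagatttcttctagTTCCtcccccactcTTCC
Cd3e: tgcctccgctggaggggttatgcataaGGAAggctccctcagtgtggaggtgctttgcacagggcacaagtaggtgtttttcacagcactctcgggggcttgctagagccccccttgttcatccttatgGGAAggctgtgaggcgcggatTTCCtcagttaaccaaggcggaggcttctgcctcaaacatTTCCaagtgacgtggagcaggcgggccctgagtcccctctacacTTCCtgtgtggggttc
Cd8a: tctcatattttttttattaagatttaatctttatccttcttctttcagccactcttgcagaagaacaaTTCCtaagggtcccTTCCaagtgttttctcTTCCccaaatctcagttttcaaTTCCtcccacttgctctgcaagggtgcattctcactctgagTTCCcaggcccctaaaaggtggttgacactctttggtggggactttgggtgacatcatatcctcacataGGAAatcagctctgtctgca
The ETS core occurred 2 times before Cd3g, 6 times before Cd3d, 5 times before Cd3e and 6 times before Cd8a, and 93.45% of all 32851 promoter windows of this length held it. The RUNX motif was in 0 of these 4 windows. It occurred 1 time in the first of 2 entries of Lck, the fifth gene matched, whose sequence is not shown, and in 14.05% of all windows.

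The 9 genes were expressed at a low level. In reads per gene, the highest count was 127 for Cd4 in a STAM_vehicle mouse and the lowest was 1, for Cd3d and for Cd8b1 in naive mice. Per kilobase of exon, which allows genes to be compared, the mean levels in STAM_vehicle liver ran from Cd4 at 0.564 ± 0.145 and Lck at 0.560 ± 0.0750 through Cd7 at 0.433 ± 0.168, Cd8b1 at 0.338 ± 0.132, Cd3e at 0.277 ± 0.0524, Cd8a at 0.229 ± 0.10, Cd3d at 0.212 ± 0.0961 and Cd3g at 0.174 ± 0.0597 down to Cd28 at 0.103 ± 0.0264 CPM per kilobase (SD, n = 4). Each step between neighbours in this order was smaller than the SD of at least one of them, except the step from Cd3g to Cd28. In naive liver Lck, at 0.368 ± 0.152, and Cd4, at 0.275 ± 0.116, again had the highest means, whereas the CD8 chains were the lowest, Cd8a at 0.0444 ± 0.0192 and Cd8b1 at 0.0507 ± 0.0359 CPM per kilobase.

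All 9 genes passed the filter on low counts, which asked for about 10 reads, or 0.22 CPM, in at least 4 mice. Cd4, Lck, Cd3e and Cd28 reached this level in all 12 mice and Cd3g in 11. Cd8b1 reached it in 4 STAM_vehicle and 2 STAM_treated mice and in 0 naive mice. Cd3d, Cd7 and Cd8a reached it in all 4 STAM_vehicle mice, in only 1, 2 and 1 naive mice, and in 1, 1 and 4 STAM_treated mice. Cd8b1, Cd3d and Cd7 passed only with the STAM_vehicle mice. For them the filter itself favoured a difference of that group from both others. Cd8a passed through its 4 STAM_treated mice as well. The counts of genes given here carry that limit.

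**Figure D1:**
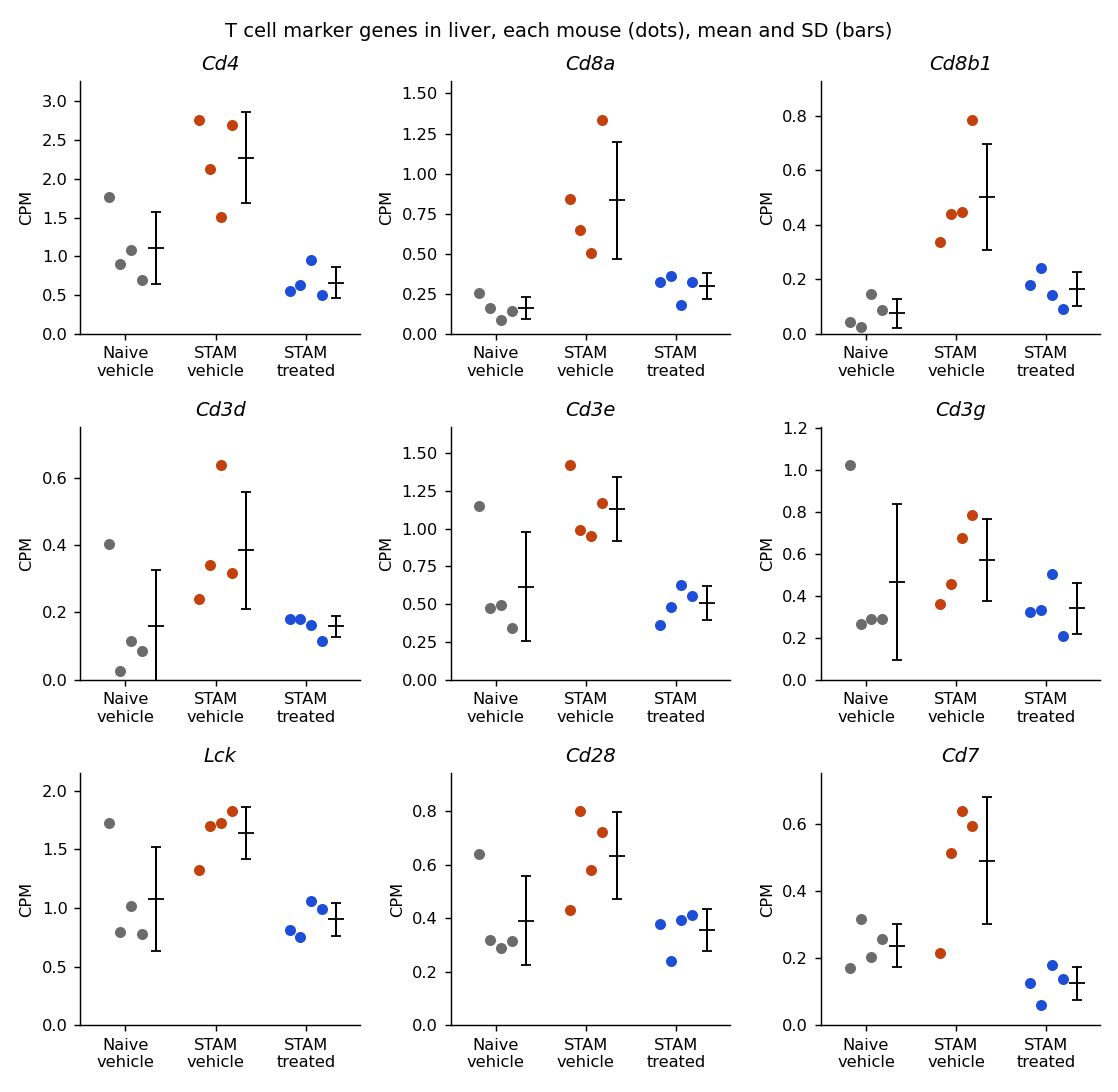
Level of each T cell marker gene in CPM (vertical axis, from 0) in every mouse of the Naive_vehicle, STAM_vehicle and STAM_treated groups; dots are mice in the order of their number, and bars beside them are mean and SD (n = 4; the lower end of the naive Cd3d bar lies below 0 and is not drawn). Cd8a and Cd8b1 separated STAM_vehicle from naive mice completely, and the first naive mouse was high in Cd3d, Cd3e, Cd3g, Cd4, Lck and Cd28. At these TMM-scaled levels STAM_treated mice lay below all STAM_vehicle mice except for Cd3g.

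Between STAM_vehicle and Naive_vehicle liver, the CD8 chains rose, and the other markers did not pass the edgeR test. Cd8a was higher in STAM_vehicle mice by 4.96-fold and Cd8b1 by 6.69-fold, and these 2 of the 9 genes passed the threshold of 0.05 for the adjusted p, where 5.72% of the 16823 genes tested were called higher. The same 2 genes were the ones whose groups did not overlap, against 14.2% of all genes with every STAM_vehicle mouse above every naive mouse. All 9 differences were positive, with a median of 1.02 on the log2 scale beside 0.0089 over all genes, and 7 of the 9 had an unadjusted p under 0.05, beside 14.99% of all genes in that direction. DESeq2 called 3 of the 9, Cd4 besides the CD8 chains, and 7.28% of all genes higher.

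Cd8a, the alpha chain that also pairs with itself on some other cells, had 12, 6, 3 and 5 reads in the naive mice and 35, 34, 26 and 63 in the STAM_vehicle mice. The lowest STAM_vehicle level, 0.503 CPM, was above the highest naive level, 0.255 CPM. Its log2 fold change was 2.31 (SE 0.412, adjusted p = 0.00482, edgeR). Cd8b1, the beta chain found with the alpha chain on conventional cytotoxic T cells, had 2, 1, 5 and 3 reads in naive liver and 14, 23, 23 and 37 in STAM_vehicle liver, and the groups again did not overlap. It changed by 2.74 on the log2 scale (SE 0.491, adjusted p = 0.00493, edgeR). The fourth STAM_vehicle mouse was the highest in both genes. Leaving out each of the 12 mice in turn kept both calls, with log2 fold changes from 1.98 to 2.65 for Cd8a and from 2.43 to 3.23 for Cd8b1, but with the sequencing lane as a covariate neither was called.

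Cd4 had 83, 34, 37 and 24 reads in the naive mice and 115, 112, 78 and 127 in the STAM_vehicle mice. The first naive mouse, at 1.77 CPM, lay above the lowest STAM_vehicle mouse, at 1.51 CPM, and the other 3 naive mice lay below all STAM_vehicle mice. The mean level was 1.11 ± 0.466 CPM in naive and 2.28 ± 0.584 CPM in STAM_vehicle liver (SD, n = 4). The log2 fold change of 1.02 (95% interval 0.35 to 1.70) did not pass the threshold (adjusted p = 0.0677, edgeR). Without the first naive mouse it was 1.35 (adjusted p = 0.0216, edgeR) and without the third STAM_treated mouse 1.00 (adjusted p = 0.0233, edgeR), and Cd4 was called in both fits. It was also called by DESeq2 (adjusted p = 0.0230) and in a fit of these 2 groups alone (adjusted p = 0.0330, edgeR).

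Among the shared markers, the CD3 chains were less even. Cd3e, the epsilon chain, had 54, 18, 17 and 12 reads in naive liver and 59, 52, 49 and 55 in STAM_vehicle liver. Cd3d, the delta chain, had 19, 1, 4 and 3 reads in naive and 10, 18, 33 and 15 in STAM_vehicle liver, and Cd3g, the gamma chain, 48, 10, 10 and 10 against 15, 24, 35 and 37. For all 3 genes the first naive mouse had more reads than any other naive mouse and reached into the STAM_vehicle range, and for Cd3g it was the highest of the 8 mice at 1.02 CPM. The log2 fold changes were 0.85 for Cd3e (adjusted p = 0.169), 1.20 for Cd3d (adjusted p = 0.224) and 0.26 for Cd3g (adjusted p = 0.785, edgeR), none of them called. Without that mouse they were 1.36, 2.32 and 1.02, and Cd3e and Cd3d were called (adjusted p = 0.0201 and 0.0226, edgeR).

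Lck, the kinase that starts receptor signalling, had 81, 30, 35 and 27 reads in naive and 55, 89, 89 and 86 in STAM_vehicle liver. Cd28 had 30, 12, 10 and 11 reads against 18, 42, 30 and 34. The first naive mouse overlapped the STAM_vehicle mice in both genes, while the other 3 did not. Cd7 had 8, 12, 7 and 9 reads against 9, 27, 33 and 28, and here it was the first STAM_vehicle mouse, at 0.216 CPM, that lay within the naive range. Their log2 fold changes were 0.60 for Lck, 0.68 for Cd28 and 1.05 for Cd7 (adjusted p = 0.214, 0.251 and 0.125, edgeR). Without the first naive mouse Lck was called at 0.93 (adjusted p = 0.0381, edgeR), which brought the genes called in that fit to 6 of 9, where 5.81% of all genes were called higher. Leaving out both this mouse and the third STAM_treated mouse, an alternative added after the data were seen, gave 8 of 9, all but Cd7, but in that fit the share of all genes called higher also rose, to 15.1%.

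**Figure D2:**
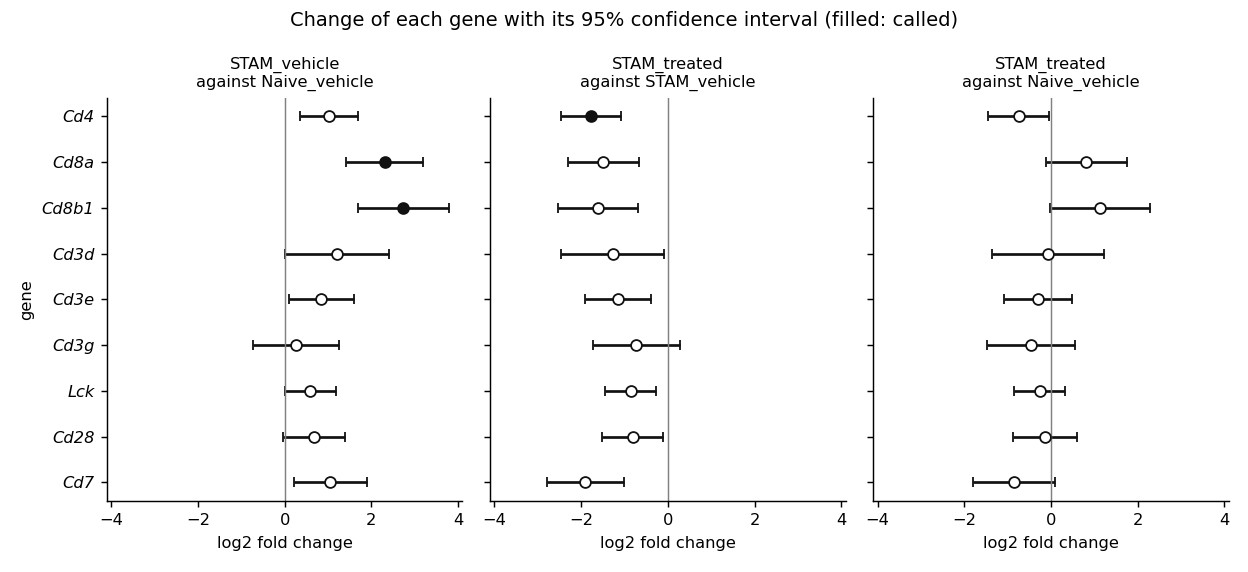
Log2 fold change of each gene (horizontal axis) with its 95% confidence interval from edgeR in the 3 comparisons; filled points passed the adjusted p threshold of the comparison and open points did not. Cd8a and Cd8b1 are the filled points at 2.31 and 2.74 for STAM_vehicle against naive mice, Cd4 is the filled point at -1.77 for STAM_treated against STAM_vehicle mice, and no gene was called for STAM_treated against naive mice.

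Between STAM_treated and STAM_vehicle liver, all 9 markers had lower mean levels in STAM_treated mice, and Cd4 passed the test. Cd4 was 3.41-fold lower and was the 1 gene of the 9 that passed the threshold for this comparison, an adjusted p up to 0.1, where 0.256% of all genes tested were called lower. In TMM-scaled CPM, every STAM_treated mouse lay below every STAM_vehicle mouse in 8 of the 9 genes, all but Cd3g, against 2.63% of all genes. For at least Cd7, Lck and Cd28 this separation rested on the TMM factor of 1.61 of the third STAM_treated mouse. That mouse had 10, 59 and 22 reads of these genes in a total of 34711229. The first STAM_vehicle mouse had fewer, 9, 55 and 18, in a larger total of 40279918. The median log2 fold change was -1.27 beside 0.024 over all genes, and 8 of the 9 had an unadjusted p under 0.05, beside 4.26% of all genes in that direction. These STAM_vehicle mice are the ones set against naive mice in the preceding comparison, so a high or low STAM_vehicle mouse moved both comparisons.

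Cd4 had 31, 21, 53 and 22 reads in the STAM_treated mice, against 115, 112, 78 and 127 in the STAM_vehicle mice. The highest STAM_treated level was 0.950 CPM, in the third mouse, and the lowest STAM_vehicle level was 1.51 CPM. Its log2 fold change was -1.77 (SE 0.325, 95% interval -2.47 to -1.07, adjusted p = 0.0520, edgeR). The call was lost in 5 of 12 fits that left out a mouse, namely STAM_vehicle mice 1, 2 and 4 and STAM_treated mice 1 and 4, with adjusted p from 0.125 to 0.179 (edgeR), while the log2 fold change ran from -1.997 to -1.66 over all 12. Without the third STAM_treated mouse it was -1.997 (adjusted p = 0.0177, edgeR). With lane as a covariate it was -1.64 (adjusted p = 0.341, edgeR) and in a fit of these 2 groups alone -1.76 (adjusted p = 0.137, edgeR), and in neither was it called.

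The CD8 chains had lower levels in STAM_treated liver but were not called by edgeR, whereas DESeq2 called both. Cd8a had 18, 12, 10 and 14 reads and Cd8b1 10, 8, 8 and 4 reads in the STAM_treated mice. No STAM_treated mouse reached the lowest STAM_vehicle mouse in either gene: the highest levels were 0.361 CPM against a lowest of 0.503 CPM for Cd8a, and 0.241 against 0.337 CPM for Cd8b1. The log2 fold changes were -1.49 for Cd8a (SE 0.381, adjusted p = 0.186, edgeR) and -1.62 for Cd8b1 (SE 0.428, adjusted p = 0.205, edgeR).

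Cd7 showed the largest difference of the 9 genes and just missed the threshold. Its reads were 7, 2, 10 and 6 in STAM_treated liver, and its level was 0.126 ± 0.0493 CPM there and 0.491 ± 0.190 CPM in STAM_vehicle liver (SD, n = 4). The first STAM_vehicle mouse, at 0.216 CPM, was the lowest of its group and the third STAM_treated mouse, at 0.179 CPM, the highest of the other. The log2 fold change was -1.90 (SE 0.410, adjusted p = 0.110, edgeR). Cd7 was called when the first STAM_vehicle mouse was left out (-2.14, adjusted p = 0.0698, edgeR) or the third STAM_treated mouse (-2.11, adjusted p = 0.0496, edgeR).

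The remaining shared markers had smaller differences. Cd3e had 20, 16, 35 and 24 reads in STAM_treated liver (log2 fold change -1.15, adjusted p = 0.312, edgeR), Cd3d 10, 6, 9 and 5 (-1.27, adjusted p = 0.538, edgeR) and Cd3g 18, 11, 28 and 9 (-0.73, adjusted p = 0.724, edgeR). Of these, Cd3g was the gene whose groups overlapped, through its first 2 STAM_vehicle mice and the third STAM_treated mouse. Lck had 45, 25, 59 and 43 reads (-0.86, adjusted p = 0.334, edgeR) and Cd28 21, 8, 22 and 18 (-0.81, adjusted p = 0.493, edgeR). In both, the highest STAM_treated mouse lay below the lowest STAM_vehicle mouse, at 1.06 against 1.32 CPM for Lck and 0.414 against 0.433 CPM for Cd28. This separation rested on the TMM factor of the third STAM_treated mouse. DESeq2, run as an alternative, called 5 of the 9 genes lower: Cd4 (adjusted p = 3.31e-05), Cd7 (0.0131), Cd8a (0.0423), Cd8b1 (0.0832) and Cd3e (0.0873). It called 0.962% of all genes lower.

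Lanes of the sequencer, read from the names of the libraries, were spread over the groups, and lanes 2, 6 and 7 each held 1 STAM_treated and 1 STAM_vehicle mouse. All 9 genes were lower in log2 CPM in the STAM_treated mouse of each pair. The share of all genes lower in each pair was not calculated. Lane 7 held the third STAM_treated mouse, with a TMM factor of 1.61 against 1.11 in its STAM_vehicle partner, so its differences depended on this scaling. Its Cd3g had 28 reads of 34711229, a larger share of the total than the 35 of 46671430 in that partner. The median difference in log2 CPM was -1.72 in lane 2, -0.68 in lane 6 and -0.68 in lane 7, and single genes ran from -2.60 for Cd8b1 in lane 2 to -0.14 for Cd3g in lane 6. Naive and STAM_vehicle mice shared lane 2 alone, where the naive mouse was the one with high T cell markers: 7 genes were higher and 2, Cd3d and Cd3g, lower in the STAM_vehicle mouse, with a median of 0.17. With 1 mouse of a group in a lane these are values without a test.

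**Figure D3:**
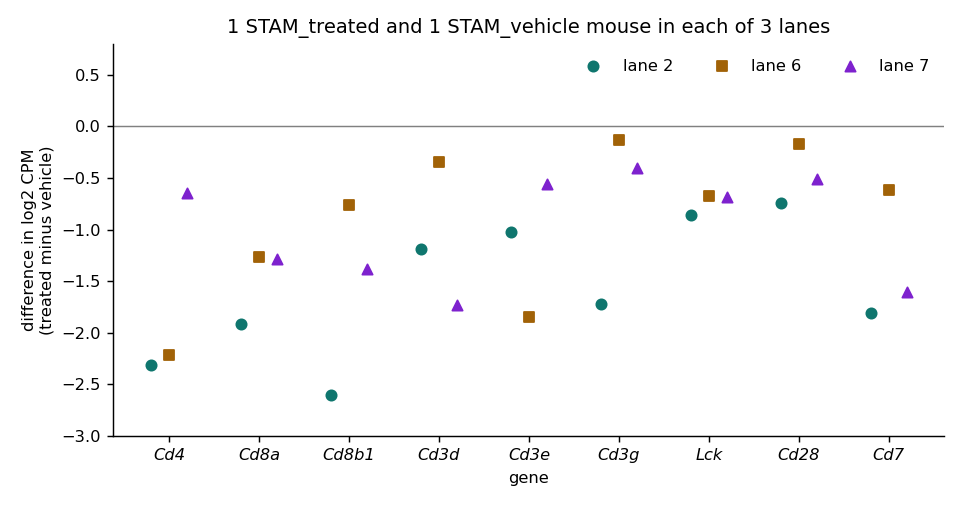
Difference in log2 CPM between the STAM_treated and the STAM_vehicle mouse of the same lane (vertical axis) for each gene, with a marker shape for each of lanes 2, 6 and 7. Every point lies below 0, from -2.60 for Cd8b1 in lane 2 to -0.14 for Cd3g in lane 6.

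Between STAM_treated and naive liver, 0 of the 9 genes were called by edgeR, where 9.88% of all genes were called higher and 5.25% lower. Of the 9, 1 gene, Cd4, had an unadjusted p under 0.05, beside 12.7% of all genes in the lower direction. DESeq2 also called 0 of the 9, where it called 10.1% of all genes higher and 6.42% lower. The CD8 chains had the higher means in STAM_treated mice, with log2 fold changes of 0.82 for Cd8a (95% interval -0.12 to 1.75) and 1.12 for Cd8b1 (-0.034 to 2.28). For Cd4 the value was -0.74 (-1.45 to -0.038) and for Cd7 -0.85 (-1.79 to 0.096). The other 5 genes had values from -0.47 for Cd3g to -0.063 for Cd3d, and for all 5 the sign turned when the first naive mouse was left out. Their intervals were wide, from -1.35 to 1.23 for Cd3d, so that levels equal to those of naive mice were not shown.

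The balance between the co-receptors was followed as the log2 ratio of raw counts within a mouse, which needs no scaling between mice. To each count 0.5 was added. The ratios were chosen with earlier results of these data known, so their tests are not independent of the differences given for single genes. The ratio of Cd4 to Cd8a was 2.74, 2.41, 3.42 and 2.16 in the naive mice, 1.70, 1.71, 1.57 and 1.01 in the STAM_vehicle mice, and 0.77, 0.78, 2.35 and 0.63 in the STAM_treated mice. Every STAM_vehicle mouse thus had a lower ratio than every naive mouse, and 3 of 4 STAM_treated mice were lower still, the third being within the naive range. The mean was lower by 1.19 in STAM_vehicle than in naive mice (exact permutation, 2-sided p = 0.0286, which is the lowest that 4 against 4 mice allow), which did not pass after adjustment over the 9 ratio tests (adjusted p = 0.129). Between STAM_treated and STAM_vehicle mice the difference was -0.36 (exact permutation p = 0.4), and without the third STAM_treated mouse -0.77.

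Relative to the summed reads of the 3 Cd3 genes, the mean log2 ratio of Cd4 was higher by 0.12 in STAM_vehicle than in naive mice (exact permutation p = 0.686). In STAM_treated mice the ratio was -0.62, -0.64, -0.44 and -0.77, against 0.45, 0.25, -0.58 and 0.25 in STAM_vehicle mice. The third STAM_vehicle mouse lay among the STAM_treated mice. The difference of -0.71 did not pass (exact permutation p = 0.0571, adjusted p = 0.129). For Cd7 relative to the Cd3 genes, the difference between STAM_treated and STAM_vehicle mice was -0.78 (exact permutation p = 0.114).

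**Figure D4:**
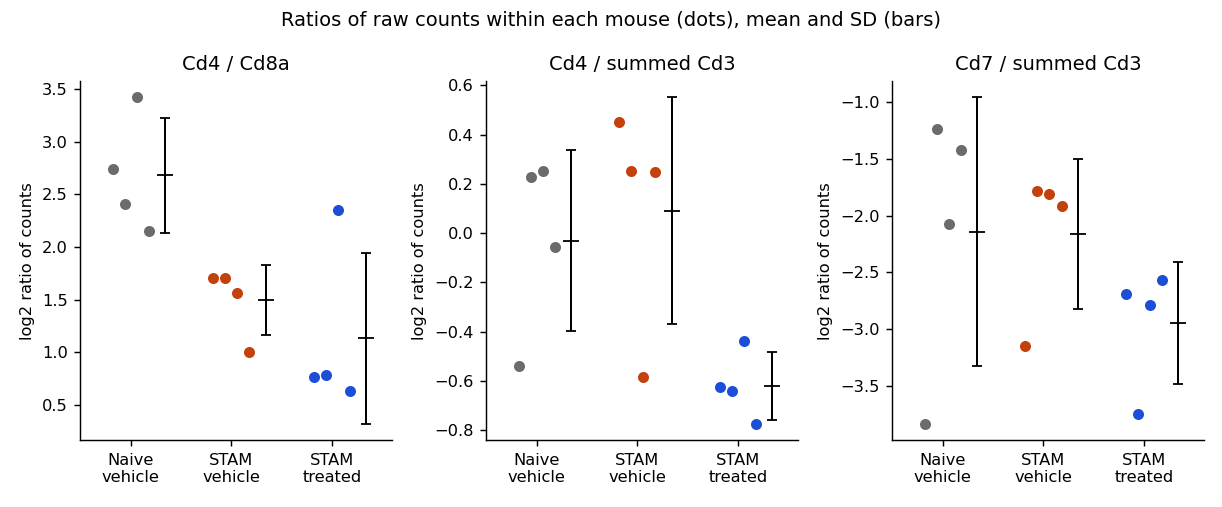
Log2 ratio of raw counts (vertical axes, with scales of their own) of Cd4 to Cd8a, of Cd4 to the sum of Cd3d, Cd3e and Cd3g, and of Cd7 to that sum, in each mouse of the 3 groups; bars are mean and SD (n = 4). The Cd4 to Cd8a ratio was 2.16 to 3.42 in naive and 1.01 to 1.71 in STAM_vehicle mice, and the third STAM_treated mouse, at 2.35, lay apart from its group.

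Further genes of T cells had mean differences of mostly the same signs. Of 23 genes of the T cell receptor and its signalling, 22 could be tested, and all 22 had higher means in STAM_vehicle than in naive liver, with a median log2 fold change of 0.76. The 4 called were Themis, a regulator of receptor signalling, at 3.75 (adjusted p = 0.000981, edgeR), the receptor-associated Cd5 at 1.91 (adjusted p = 0.00986) and Cd6 at 1.46 (adjusted p = 0.0165), and the phosphatase Ptprc, carried by all leukocytes, at 0.92 (adjusted p = 0.0400). Themis and Cd5 kept their calls whichever of the 12 mice was left out, Cd6 in 9 of the 12 fits and Ptprc in 5. The constant chains of the receptor itself were not called: Trac was at 0.95, Trbc1 at 1.27 and Trbc2 at 0.75 (adjusted p = 0.133, 0.148 and 0.349, edgeR). In STAM_treated against STAM_vehicle liver 20 of the 22 had lower means, with a median of -0.62. There edgeR called 0 of them, 8 had an unadjusted p under 0.05, and DESeq2 called Cd5 and Cd6. Against naive liver Themis stayed higher in STAM_treated mice, at 3.30 (adjusted p = 0.00151, edgeR). Mean levels of Themis were 0.440, 5.82 and 4.26 CPM in naive, STAM_vehicle and STAM_treated mice, beside 0.521, 1.02 and 0.520 CPM for Trac. Which cells carried Themis was not tested.

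Of 13 genes of the cytotoxic programme 8 were tested, and all 8 had higher means in STAM_vehicle than in naive mice (median log2 fold change 0.97) and lower means in STAM_treated than in STAM_vehicle mice (median -1.09). The chemokine Ccl5 was the 1 gene called by edgeR, at 1.19 in STAM_vehicle against naive liver (adjusted p = 0.0348), in 7 of 12 fits that left out a mouse. DESeq2 called Klrk1 and Runx3 there as well. Ccl5 was at -1.37 in STAM_treated against STAM_vehicle liver (adjusted p = 0.135, edgeR). Granzyme B (Gzmb), a protein of the killing granules, was at -1.78 in the latter comparison (adjusted p = 0.158, edgeR). There edgeR called 0 of the 8, 6 had an unadjusted p under 0.05, and DESeq2 called Ccl5, Gzmb and the receptor gene Klrk1. Gzmk, a granzyme of memory-type cells, was too low to test, with 0 reads in every naive mouse, 3 to 10 in STAM_vehicle and 0 to 3 in STAM_treated mice. Gzmk and Gzmb were singled out after their values were seen. The other untested genes were Eomes, Prf1, Fasl and Crtam. In the same order of groups Eomes had 0 to 4, 3 to 9 and 0 to 5 reads. Prf1 had 3 to 5, 1 to 11 and 5 to 9, Fasl 4 to 7, 4 to 9 and 3 to 10, and Crtam 1 to 4, 1 to 6 and 3 to 5. The 9 tested genes of 12 listed for helper and regulatory T cells had medians of 0.052 and -0.13 in these comparisons. For them edgeR and DESeq2 called 0, with an unadjusted p under 0.05 in 0 and 2 genes. Zbtb7b and Bcl6 among them were at 123 and 16.7 CPM in STAM_vehicle liver, and neither is particular to T cells. Il17a had 0 reads in every mouse.

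Of 13 costimulation and checkpoint genes 9 were tested. Icos, a costimulatory receptor of activated T cells, at 1.23 (adjusted p = 0.0331, edgeR), and Cd274, which encodes the checkpoint ligand PD-L1, at 1.39 (adjusted p = 0.00446, edgeR), were called higher in STAM_vehicle than in naive liver. With each mouse left out in turn, Cd274 was called in 12 of 12 fits but Icos in 6, its call being lost without any of the 4 naive mice and without STAM_vehicle mice 3 and 4, and DESeq2 called Cd86 as well. The median of the 9 was 0.72 there and -0.21 in STAM_treated against STAM_vehicle liver, where edgeR and DESeq2 called 0 and 0 had an unadjusted p under 0.05. Pdcd1, the receptor of that ligand, was too low to test, with 0 to 1 reads in naive, 2 to 11 in STAM_vehicle and 0 to 3 in STAM_treated mice. The other untested genes were Ctla4, Tigit and Cd40lg. In the same order of groups Ctla4 had 0 to 6, 3 to 9 and 1 to 7 reads and Tigit 3 to 8, 8 to 16 and 3 to 7. Cd40lg had 0 to 13, 1 to 5 and 2 to 8.

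Some of the 9 markers also occur outside T cells, Cd4 and Cd8a on dendritic cells and Cd7 on NK cells, so the markers of other cells are given beside them. The summed level of 12 dendritic cell markers was 60.4 to 70.3 CPM in naive, 88.9 to 95 in STAM_vehicle and 68.1 to 79.9 CPM in STAM_treated mice, but Bst2, which interferon induces in many cell types, made up most of it, at 47.8, 68.8 and 49.4 CPM on average. Without Bst2 the other 11 summed to 15.3 to 24.2, 21.1 to 27 and 15.1 to 37.5 CPM, so that the 3 groups overlapped. The mean was 23.1 CPM (SD 2.73) in STAM_vehicle and 23.6 CPM (SD 9.73) in STAM_treated mice. The highest STAM_treated value, 37.5 CPM, was that of the third mouse, which stood apart, and it raised the mean of its group. The mean without that mouse was not calculated, so the similar means do not show that these markers were unchanged in STAM_treated mice. Of the 11 tested edgeR called 0 in STAM_vehicle against naive or in STAM_treated against STAM_vehicle liver. Their medians were 0.66 and -0.43, 5 and 2 genes had an unadjusted p under 0.05, and DESeq2 called Flt3 and Itgax in the first comparison. The 10 NK cell markers summed to 14.6 to 19.4, 17.6 to 28.4 and 16.9 to 22 CPM. The adaptor Tyrobp, shared with myeloid cells, made up most of this sum, at 8.47, 14.6 and 11.7 CPM on average. Of the 6 tested, Klrd1, also found on cytotoxic T cells, and Tyrobp were called higher in STAM_vehicle than in naive liver (1.51 and 0.78, adjusted p = 0.0443 and 0.0420, edgeR). These calls held in only 2 and 5 of 12 fits that left out a mouse. The median of the 6 was 0.57 in that comparison, with 5 higher and 1 lower. In STAM_treated against STAM_vehicle liver it was -0.46, with 5 lower and 1 higher. There edgeR and DESeq2 called 0 of the 6, and 1 had an unadjusted p under 0.05. Ncr1, the defining receptor of NK cells, had 0 to 6 reads in a mouse. The part of dendritic and NK cells in the levels of Cd4, Cd8a and Cd7 was not tested.

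Markers of other leukocytes were read for comparison. Of 11 Kupffer cell and macrophage markers edgeR called 6 and DESeq2 9 higher in STAM_vehicle than in naive liver, with a median of 0.99. The 6 were Cd68, Cx3cr1, Clec4f, Ly6c2, Marco and Adgre1, called in 12, 9, 7, 7, 7 and 5 of 12 fits that left out a mouse. In STAM_treated against STAM_vehicle liver edgeR and DESeq2 called 0 of the 11. There the median was -0.12, and 1 gene, Ly6c2 of inflammatory monocytes, had an unadjusted p under 0.05. In STAM_treated against naive liver 5 of the 11 were called higher, the scavenger receptor Marco at 2.21 (adjusted p = 0.0137, edgeR) among them. Cd68, Marco, Cx3cr1, Csf1r and Clec4f were called there in 12, 12, 11, 7 and 4 of 12 fits that left out a mouse. The 10 B and plasma cell markers had medians of 0.30 and -0.15, with 0 called by either tool and 0 at an unadjusted p under 0.05, and 5 tested neutrophil markers 1.89 and -0.14, with the growth factor receptor Csf3r called by edgeR in the first comparison, in 4 of 12 fits that left out a mouse; DESeq2 also called S100a8 and S100a9. For 8 genes of all leukocytes the medians were 0.90 and -0.21, with Laptm5 and Cd52 called by edgeR in the first, in 5 and 7 of 12 such fits, and 6 of the 8 called by DESeq2. For 7 hepatocyte markers the medians were -0.53 and -0.00058, with 0 called by either tool and 1 and 0 at an unadjusted p under 0.05. Of the other lists, edgeR also called Cd274, Csf3r, Coro1a and the dendritic cell marker Batf3 higher in STAM_treated than in naive liver. These calls held in 12, 7, 4 and 2 of 12 fits that left out a mouse. The difference between these lists and the 9 markers was not tested.

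**Figure D5:**
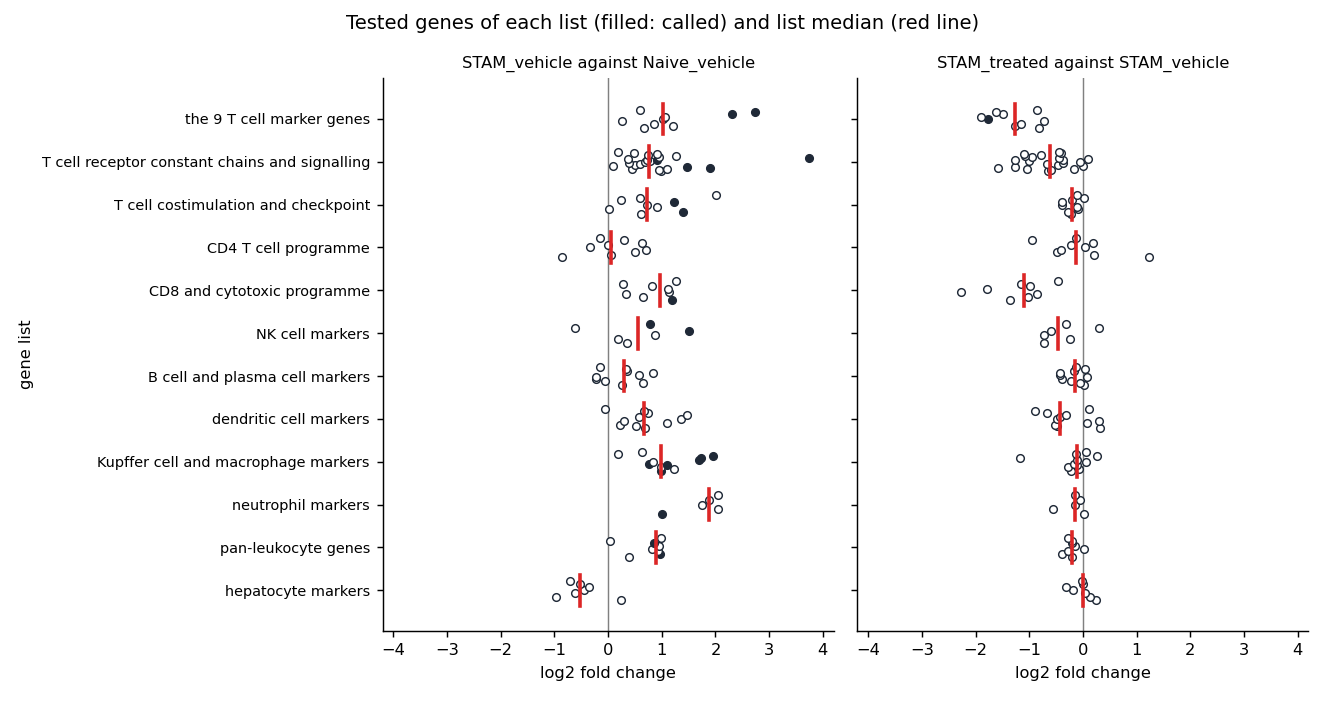
Log2 fold change (horizontal axis) of every tested gene of each list (points, filled where called) with the median of the list as a red line, for STAM_vehicle against naive mice (left) and STAM_treated against STAM_vehicle mice (right). On the left most leukocyte lists lie above 0. On the right the T cell markers and the cytotoxic programme have the lowest medians, -1.27 and -1.09. The T cell receptor and signalling genes follow at -0.62, NK cell markers at -0.46 and dendritic cell markers at -0.43, beside -0.12 for macrophage markers.

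Among themselves the 9 genes varied together to differing degrees over the 12 mice. Pearson's r between the log2 CPM of a gene and the mean of the other 8 was highest for Lck at 0.942 and lowest for Cd7 at 0.612, with Cd8b1 at 0.643. After the group means were removed, r was 0.915 for Lck, 0.894 for Cd3g and 0.727 for Cd28, but -0.061 for Cd7 and -0.072 for Cd8b1. These are descriptions over mice that share groups and libraries. Outside the list, the genes most like the mean of the 9 were Thbs1 (r = 0.917, thrombospondin 1), Gem (0.898), Gimap3 (0.892), Lax1 (0.884), Ms4a4b (0.879), Cd5 (0.877), Tpx2 (0.873), Ptpn22 (0.873), Ikzf3 (0.871) and Il2rb (0.871). Within groups r ran from 0.285 for Tpx2 to 0.915 for Lax1 among them, and 3 of the 10 were also among the 10 highest by Spearman's rho.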

How the data were processed

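Poly(A) RNA of whole liver from 12 mice was sequenced from stranded libraries. Per the labels and the methods of the study, the authors aligned reads to mm10 with STAR 2.5.1b and deposited raw counts per gene; HTSeq and another counter are both named as the source, and the strand setting is not given in the sources used here. The study left out 1 I-BET151 library that it did not name, and all 4 were used here. Deposited counts of 47729 genes (47310 matched to GENCODE release 21) were fitted in edgeR 4.0.16 (R 4.3.3; TMM, filterByExpr with a minimum count of 10, quasi-likelihood test, 16823 genes, Benjamini-Hochberg over all of them), with 12 mice and 3 groups in a single fit. Thresholds for the adjusted p were 0.05, or 0.1 for STAM_treated against STAM_vehicle as in the study. CPM is the count divided by the TMM-adjusted size of the library, log2 CPM use a prior count of 2, and SE is the log2 fold change divided by the root of its F statistic. Groups came from sample labels and lanes from library names. Ratios of counts were compared by 2-sided exact permutation tests over 70 arrangements (SciPy 1.17.1), adjusted over 9 tests. p-values measure the spread between these mice only. All members were named in the text, and from each other list the genes called, with any exception stated; the 10 genes most like the members were chosen by Pearson's r. The members, lists and ratios were chosen with earlier results of these data known. Alternatives were DESeq2 1.42.0, RLE scaling, other filters, fits of 2 groups, a replicate block, lane as a covariate and leaving out each mouse; scripts were tested on simulated data.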

Additional observations from a re-analysis of the deposited data

Results flagged for a closer look

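A mouse lay apart from the other 3 of its group in 4 of the 36 groups of values examined, where its gap to the nearest mouse was a larger part of the range than Dixon's limit allows; chance alone passes this limit in about 1 in 20 groups. The first Naive_vehicle mouse did so for Cd3g, at 1.02 CPM, and for Cd28, at 0.638 CPM, both above the other naive mice. The third STAM_treated mouse had a log2 ratio of Cd4 to Cd8a of 2.35, above the rest of its group. In the first STAM_vehicle mouse the log2 ratio of Cd7 to the summed Cd3 genes was -3.15, below the others.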

How the results depend on the processing

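The number of T cell markers called moved with the processing while the signs of the differences between STAM_treated and STAM_vehicle mice did not. Percentages in brackets are the shares of all tested genes called in the same direction. STAM_vehicle against naive liver gave 2 genes (5.72%). Asking for 10 reads in every mouse (3 genes left to test) gave 0 (5.04%), and lane as a covariate 0 (0.196%). Leaving out both mice that stood apart (added after seeing the data) gave 8 (15.1%), and leaving out 1 mouse 2 to 6 (2.66% to 11.95%). STAM_treated against STAM_vehicle liver gave 1 gene (0.256%). An adjusted p of at most 0.05 gave 0 (0.113%), DESeq2 5 (0.962%), no filter 2 (0.250%) and the fit of 2 groups 0 (0.0360%). The replicate block gave 0 (0.0476%, with Cd4 at an adjusted p of 0.173, edgeR) and lane 0 (0%). Both mice left out gave 5 (2.27%), and leaving out 1 mouse 0 to 2 (0.0586% to 1.46%). STAM_treated against naive liver gave 0 lower (5.25%) and 0 to 0 without 1 mouse (2.18% to 9.53%). DESeq2 without the third STAM_treated mouse gave 1, Cd4 (9.54%).

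Signs turned for genes that were not called. For STAM_treated against naive liver these were Cd3d (log2 fold change 0.056 with the replicate block, 1.05 with both mice left out, -0.41 to 1.05 without 1 mouse), Cd3e (0.068 with both left out, -0.50 to 0.21 without 1), Cd3g (0.031, -0.75 to 0.29), Cd28 (0.18, -0.26 to 0.23) and Lck (-0.39 to 0.072 without 1). Cd3g in STAM_vehicle against naive liver was -0.30 with lane. The cause was not tested.

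The Cd4 to Cd8a ratio in STAM_vehicle against naive mice was -1.19 with the replicate block (exact permutation p = 0.125, the smallest that 4 signs allow) and -1.36 to -0.94 without 1 mouse. In STAM_treated against naive mice it was -1.95 to -1.30 without 1 mouse. Cd4 to summed Cd3 was -0.048 to 0.35, -0.94 to -0.59 and -0.76 to -0.49 in the 3 comparisons without 1 mouse, and Cd7 to summed Cd3 -0.59 to 0.31, -1.11 to -0.52 and -1.37 to -0.50.

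Over all genes, the 963 called higher in STAM_vehicle than in naive liver became 2085 in the fit of 2 groups, 641 with the replicate block, 33 with lane, and 458 to 2028 without 1 mouse. The 43 called lower in STAM_treated than in STAM_vehicle liver became 174 with DESeq2, 8 with the block, 0 with lane and 10 to 248 without 1 mouse. Mice with the same number did not vary together (mean r -0.093 over 12 pairs, 0.031 over 36 other pairs), so the block is not a pairing. Low counts limit the precision of Cd3d, Cd7 and Cd8b1, with 1 to 37 reads in a mouse.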
